A study of Neotoma lepida with 16 samples.

Results

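Gene expression in the liver was compared between desert woodrats (Neotoma lepida) fed a plant familiar to their population and woodrats fed a plant unfamiliar to it. All 16 animals of the series entered the comparison. The 8 animals on a familiar diet were 4 Mojave woodrats fed creosote and 4 Great Basin woodrats fed juniper, and the 8 on a unfamiliar diet were 4 Mojave woodrats fed juniper and 4 Great Basin woodrats fed creosote. Every animal was caught in the wild, lived on rabbit chow in captivity for 3 months and then ate chow with rising amounts of its plant for 5 days. There was no chow-only group, and a higher value on familiar plants is equally a lower value on unfamiliar ones. Sex was uneven: the Mojave creosote group had 4 males, while the remaining groups had 2 of either sex. The familiar minus unfamiliar difference is the average of the Mojave diet difference (creosote minus juniper) and the Great Basin diet difference taken the other way round (juniper minus creosote). In this design it is the population by diet interaction divided by 2, with the same test. The diet differences of the populations thus lie 2 times as far apart as the value given. The familiarity of a plant cannot be told apart from any other reason for which the populations respond differently to it.

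Creosote bush leaves are coated with a phenolic resin rich in nordihydroguaiaretic acid, and juniper foliage carries terpenes such as alpha-pinene. The liver clears such compounds by P450 enzymes that oxidise them, by enzymes that attach glucuronic acid, glutathione or sulphate, and by transporters that export the products. Creosote is a staple of Mojave woodrats and juniper of Great Basin woodrats, which is the basis of the names familiar and unfamiliar. The study asked how the livers of the 2 populations respond to both plants.

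Each animal was hybridised on its own 2-colour rat array against an equimolar pool of all 16 livers. A value is therefore the log2 ratio of 1 animal to that pool, and levels of different genes are not compared. The share of probe spots well above background ranged from 46.4% to 76.2% over the arrays. It averaged 65.1% ± 9.61 (SD, n = 8) on familiar and 63.5% ± 11 (SD, n = 8) on unfamiliar diets, a difference of 1.57 percentage points (two-sided exact permutation test within populations, p = 0.764). The 4 slides each carried 1 array of every group, and the arrays of the dimmest slide averaged 49.2% against 66% to 71.7% on the others. Groups kept one position on every slide, with familiar groups at positions 2 and 4 and unfamiliar groups at 1 and 3, so position and group cannot be told apart. Of 17 hepatocyte markers 15 passed the filter on dim probes, and the median familiar minus unfamiliar difference of these 15 was -0.015.

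Few genes passed the adjusted threshold between familiar and unfamiliar diets. Of 26530 genes tested with limma, 11 (0.0415%) passed an adjusted p of 0.05, 6 of them higher (0.0226%) and 5 lower (0.0188%) on familiar plants. With arrays centred on their median in place of loess, 2411 genes passed, 126 higher and 2285 lower. All 11 had an adjusted p of 0.0493, just inside the threshold. In the same model 1052 genes (3.96%) differed between the diets in Great Basin animals (2.05% higher and 1.91% lower on creosote) and 2525 genes (9.52%) in Mojave animals (3.81% higher and 5.7% lower). The median familiar minus unfamiliar difference over all genes was 0.0001 in log2 units and the median of its absolute size 0.061, with a median standard error of 0.066. No gene had a familiar minus unfamiliar difference of 1 log2 unit or more, and in 102 it was 0.5 or more in size. In these 102 genes the diet differences of the populations lay at least 1 log2 unit apart. The diet difference averaged over the populations reached 1 log2 unit in 143 genes. At an unadjusted p under 0.05, 1353 genes (5.1%) were higher and 2099 (7.91%) lower on familiar plants, 13% in all. If no gene differed, a share of about 0.05 would be expected on average, though genes are not independent. The 11 calls therefore do not measure how many genes differ. The 13% were not evenly spread over brightness. Of 4 bins by brightness the dimmest had 2.43% of its genes higher and 2.46% lower, and the brightest 8.89% and 14.6%. The shares of gene lists below are set beside all genes, not beside genes of like brightness.

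The number of calls depended on single animals and on the model. Leaving out 1 animal at a time gave from 0 to 336 calls, with 0 in 10 of the 16 cases. The highest count came without Great Basin creosote 4, a female. Without the sex term 68 genes passed, and with male animals alone 0 passed, with 2496 genes at an unadjusted p under 0.05. With the slide as a block, each slide holding 1 array of every group, 15 genes passed (3 higher, 12 lower), 7 of the 11 among them. Pfdn5, RGD1559786, M23885 and CB546385 then had adjusted p-values of 0.0586 to 0.0762. The direction of all 11 genes was the same in each of these fits.

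**Figure D1:**
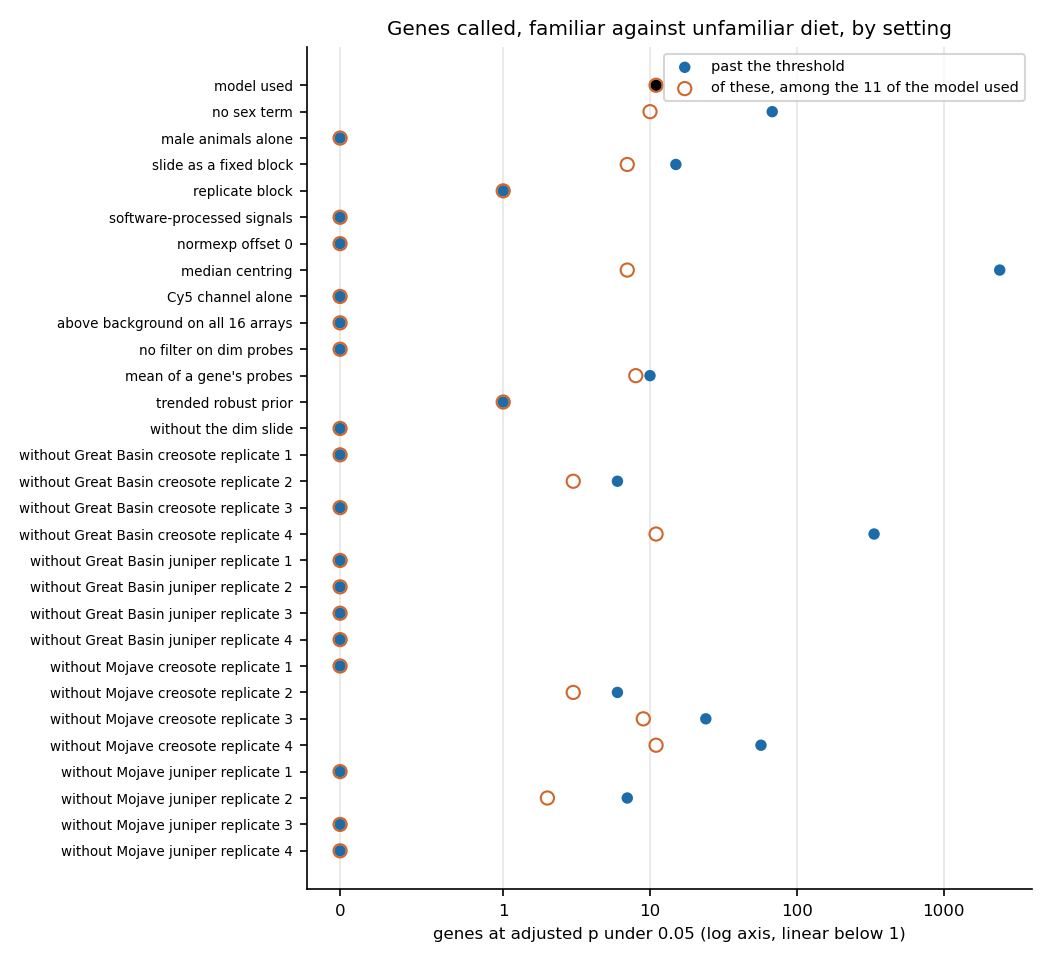
Number of genes at an adjusted p under 0.05 in the familiar minus unfamiliar comparison (x axis, log scale, linear below 1) in the model used and in each alternative (y axis). Filled points give all genes called and open circles those among the 11 of the model used; the counts run from 0 to 2411.

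The responses of the populations to diet overlapped in part. Across the genes the creosote minus juniper differences of the 2 populations, which come from separate animals, had a Pearson r of 0.518 and a Spearman rho of 0.318, given here as a description over genes that are not independent. Of the genes called for diet in both populations, 543 moved the same way and 2 in opposite ways. The 545 genes were 51.8% of the Great Basin and 21.6% of the Mojave calls, and 507 further genes were called in Great Basin animals alone and 1980 in Mojave animals alone. Over all genes the diet differences of the populations had opposite signs in 41.1%. The 2 genes that moved in opposite ways, an unannotated transcript (probe A_44_P213371) and LOC678905, were among the 11. Diet took up 25.5% of the total sum of squares, population 9.11% and the familiar against unfamiliar contrast 9.01%, over 26076 genes. These shares came from plain group means without the sex term. Random spread between animals adds to each of them, so they overstate what each factor explains.

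**Figure D2:**
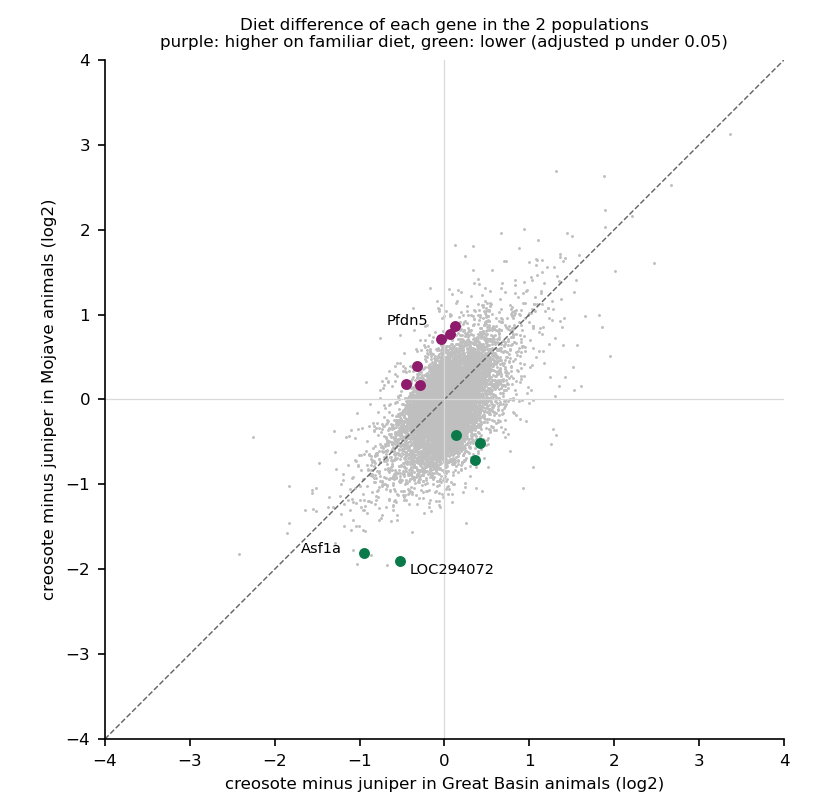
Creosote minus juniper difference of each gene in Great Basin animals (x axis, log2) and in Mojave animals (y axis, log2); the dashed line marks equal differences. The 11 genes past the threshold are coloured, purple where they were higher (6) and green where they were lower (5) on the familiar plant, and lie away from the dashed line.

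Asf1a, a chaperone of histones H3 and H4 that hands them on during chromatin assembly, had the smallest p of all genes. Its log2 ratios were -1.47, -1.46, -1.27 and -1.14 in the Mojave animals on creosote and 0.59, 0.44, 0.33 and 0.37 in those on juniper. In Great Basin animals they were -1.01, -0.87, -0.92 and -1 on creosote and 0.07, -0.13, 0.07 and -0.03 on juniper. Creosote-fed animals of both populations were lower than all juniper-fed animals, and the gap was wider in the Mojave animals. The diet difference was -1.80 in Mojave and -0.94 in Great Basin animals, and the familiar minus unfamiliar difference was -0.43 ± 0.06 (SE; limma, adjusted p = 0.0493). A second Asf1a probe gave -0.24 ± 0.06. Asf1a was the only one of the 20 genes with the largest averaged diet differences, 10 in each direction, that also passed the familiar minus unfamiliar threshold.

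LOC294072, annotated as similar to transmembrane protein 20, showed the same order of groups with the largest familiar minus unfamiliar difference of the 11, -0.69 ± 0.10 (SE). The values were -1.66, -1.71, -1.91 and -1.48 on creosote and 0.11, 0.43, 0.34 and 0.32 on juniper in Mojave animals. Values in Great Basin animals were -1.33, -0.87, -0.4 and -1.03 on creosote and -0.31, -0.35, -0.32 and -0.55 on juniper. The Mojave groups did not overlap, whereas the lowest juniper animal of the Great Basin (-0.55) lay below the highest creosote animal (-0.4). The creosote minus juniper difference was -1.90 in Mojave animals (adjusted p = 1.13e-05) and -0.53 in Great Basin animals (adjusted p = 0.0527).

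Pfdn5 encodes a subunit of prefoldin, the complex that delivers unfolded actin and tubulin to the cytosolic chaperonin. Its log2 ratios in Mojave animals were 0.86, 0.78, 0.64 and 0.54 on creosote and -0.08, -0.2, -0.11 and -0.15 on juniper. In Great Basin animals they were 0.36, 0.2, 0.12 and 0.12 on creosote and 0.01, 0.03, 0.21 and 0.26 on juniper. The Mojave animals on creosote stood above all other animals, those on juniper below all others, and the Great Basin groups overlapped. The difference between familiar and unfamiliar diets was 0.35 ± 0.06 (SE; limma, adjusted p = 0.0493). With arrays centred on their median in place of loess it was 0.07.

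A locus annotated as similar to ribosomal protein S24 (XM_227733) and RGD1559786, a predicted gene of unknown role, had the same form. XM_227733 was at 0.75, 0.6 and 0.46 in the 3 measured Mojave animals on creosote, 1 spot having been left out, and between -0.15 and 0.15 in the other 12 animals. Its familiar minus unfamiliar difference was 0.37 ± 0.06 (SE), and 0.06 with median centring. RGD1559786 was between 0.42 and 0.82 in Mojave animals on creosote and between -0.34 and -0.3 in those on juniper. In Great Basin animals it averaged 0.27 on creosote and 0.14 on juniper. Its familiar minus unfamiliar difference was 0.37 ± 0.06 (SE), 0.09 with median centring, and a second probe of RGD1559786 gave 0.00 ± 0.06, so the difference was seen with 1 of its 2 probes.

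Other called genes reversed between the populations, which is the pattern in which both familiar groups stand on one side. The unannotated transcript A_44_P213371 was at 0.09, 0.04, -0.01 and -0.11 in Great Basin animals on juniper and at -0.05, 0.08, 0.06 and 0.01 in Mojave animals on creosote. On unfamiliar plants it was at -0.43, -0.17, -0.33 and -0.39 in Great Basin animals on creosote and at -0.48, -0.18, -0.33 and -0.45 in Mojave animals on juniper. No animal on a unfamiliar plant reached the level of any on a familiar plant. A_44_P213371 had a familiar minus unfamiliar difference of 0.36 ± 0.06 (SE), and 0.06 with median centring. It was the only one of the 11 whose 8 familiar and 8 unfamiliar animals did not overlap.

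LOC678905, annotated as similar to the human open reading frame C7orf11, ran the other way. In Great Basin animals its values were 0.65, 0.22, 0.65 and 0.34 on creosote and -0.02, 0.13, 0.04 and 0.04 on juniper. In Mojave animals they were -0.64, -0.4, -0.21 and -0.35 on creosote and 0.05, 0.11, 0.22 and 0.21 on juniper. The Mojave animals on creosote were below all other animals and the Great Basin animals on creosote were at or above them. The juniper groups of the populations overlapped. LOC678905 had a familiar minus unfamiliar difference of -0.47 ± 0.08 (SE). RGD1563888, a predicted gene of unknown role, was at -0.32, -0.35, -0.07 and 0.1 in Great Basin animals on juniper and at -0.66, -0.24, -0.4 and -0.21 in Mojave animals on creosote. Its 8 animals on unfamiliar plants lay between 0.09 and 0.4, so only 1 familiar animal reached their range, and its difference was -0.54 ± 0.08 (SE).

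Rkhd2, now named Mex3c, encodes an RNA-binding ubiquitin ligase. Its values in Mojave animals were -0.42, -0.6, -0.45 and -0.45 on creosote and -0.04, -0.06, 0.14 and 0.14 on juniper. Values in Great Basin animals were -0.25, -0.24, -0.08 and 0.04 on creosote and -0.1, -0.22, -0.32 and -0.42 on juniper. Its familiar minus unfamiliar difference was -0.28 ± 0.04 (SE), a second Rkhd2 probe gave -0.49 ± 0.12, and its male minus female coefficient was -0.21. The last 2 of the 11 were a T-cell receptor beta V region transcript (M23885) with 0.32 ± 0.05 (SE; second probe 0.08 ± 0.07) and an expressed sequence tag (CB546385) with 0.23 ± 0.04 (SE). CB546385 was between 0.06 and 0.28 in Great Basin animals on juniper and between -0.2 and -0.02 in those on creosote, with the Mojave animals between -0.07 and 0.14. M23885 was between 1.03 and 1.2 in Great Basin animals on juniper and between 0.55 and 0.92 in the other groups.

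**Figure D3:**
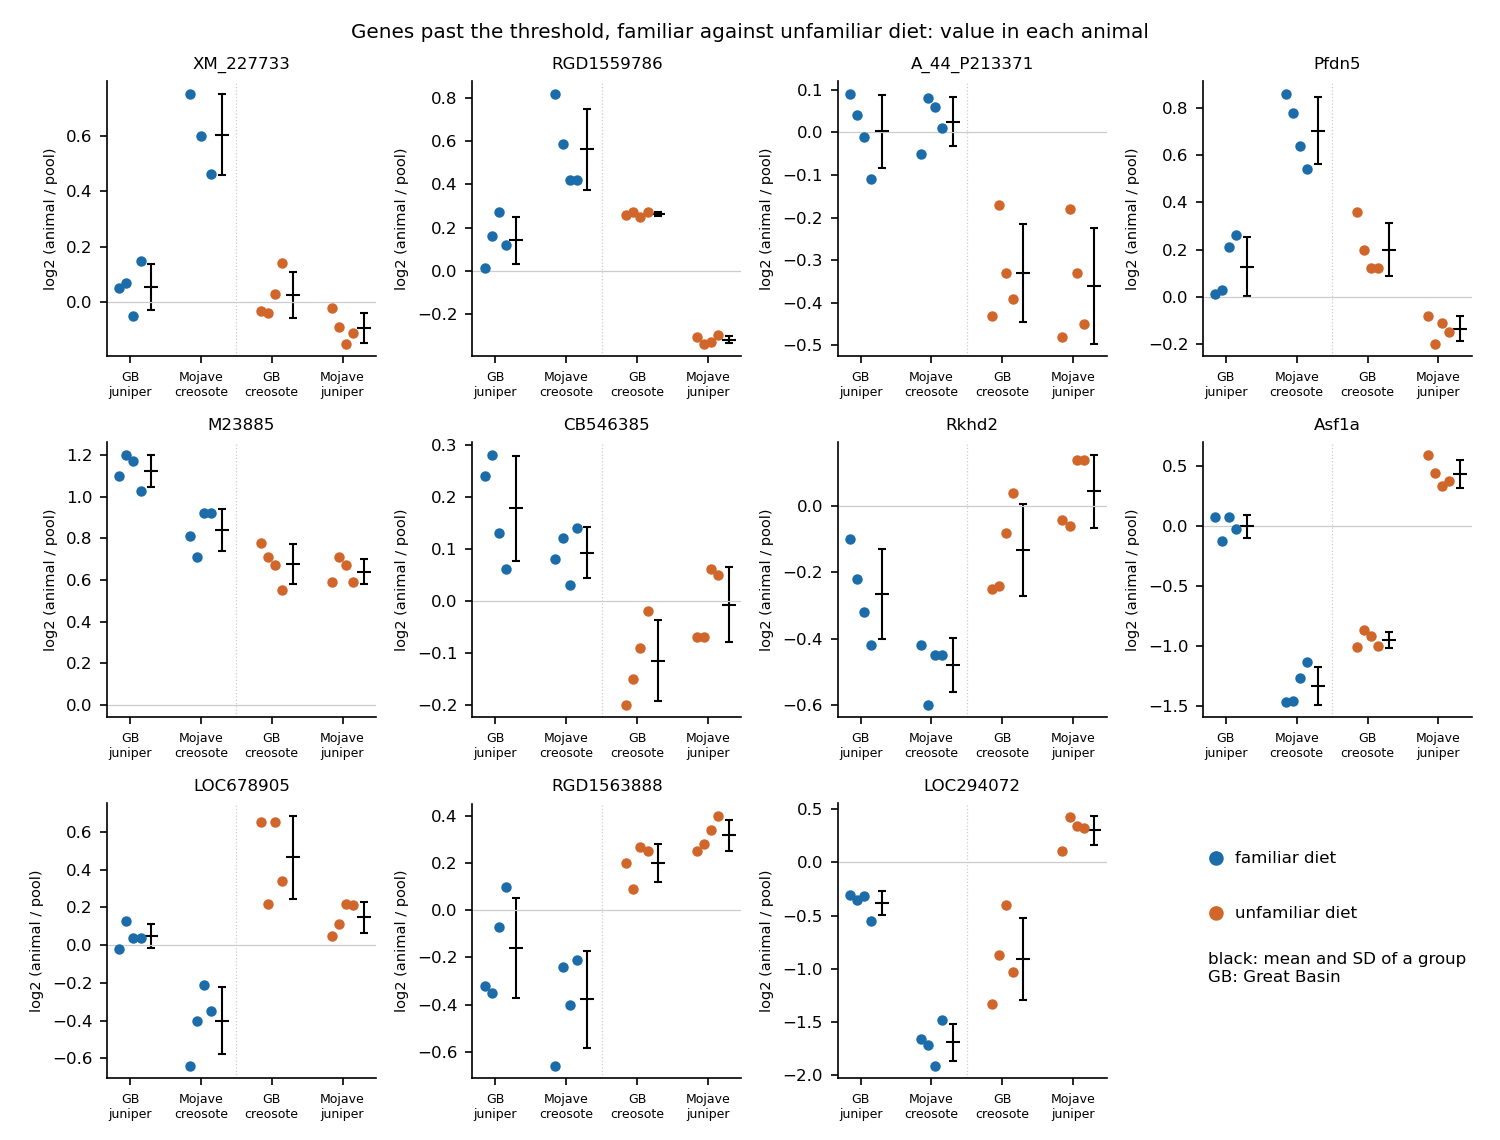
Log2 ratio of each animal to the pool (y axis) for the 11 genes past the threshold, by group (x axis), blue for familiar and orange for unfamiliar diets; black marks give the mean and SD of a group. For Pfdn5 the 4 Mojave animals on creosote sit between 0.54 and 0.86, above all other animals.

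Over the 3452 genes at an unadjusted p under 0.05, the group farthest from the mean of the other groups was Mojave creosote in 1612, Mojave juniper in 778, Great Basin creosote in 734 and Great Basin juniper in 328. The same counts over all genes tested were not made, so whether this order is particular to these 3452 genes was not tested. Mojave creosote was also the group without females. The model's sex term entered the choice of the 3452 genes, and the part of sex in these counts was not tested. Of the 11 called genes, Mojave creosote stood farthest in 6 of them and Mojave juniper in 3, by plain group means not adjusted for sex.

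Genes that only just missed the threshold included the following, given as values. Gcsh, the carrier protein of the glycine cleavage system, had a familiar minus unfamiliar difference of 0.37 ± 0.06 (SE; limma, adjusted p = 0.0533). Its values were 1.23, 0.91, 0.8 and 1.01 in Mojave animals on creosote and -0.27, -0.24, -0.49 and -0.33 in those on juniper. In Great Basin animals they were 0.36, 0.47, 0.34 and 0.48 on creosote and -0.17, -0.14, 0 and -0.18 on juniper. All creosote-fed animals were above all juniper-fed animals, with the wider gap in Mojave. A second Gcsh probe gave 0.04 ± 0.15.

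Plxnb1, the receptor plexin B1 for semaphorin 4D, had a difference of -0.48 ± 0.08 (SE; adjusted p = 0.0533). The familiar values of Plxnb1 were -0.42, -0.43, -0.3 and -0.23 in Great Basin animals on juniper and -0.61, -0.63, -0.35 and -0.31 in Mojave animals on creosote. The unfamiliar values were 0.49, 0.17, 0.42 and -0.04 in Great Basin animals on creosote and -0.1, -0.23, -0.06 and -0.29 in Mojave animals on juniper. Familiar animals were lower with an overlap between -0.29 and -0.23. A second Plxnb1 probe gave -0.07 ± 0.06. Terf1, which binds telomere repeats, gave -0.43 ± 0.08 (adjusted p = 0.0589), with -0.01 ± 0.06 at a second Terf1 probe.

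Prdx1, a peroxiredoxin that reduces hydrogen peroxide, was at 0.52, 0.65, 0.57 and 0.76 in Great Basin animals on juniper and at 0.87, 0.29, 0.44 and 0.55 in Mojave animals on creosote. On unfamiliar plants Prdx1 was at -0.28, 0.24, -0.24 and -0.17 in Great Basin animals on creosote and at 0.19, 0.32, 0.48 and 0.18 in Mojave animals on juniper. The groups of the Great Basin did not overlap and those of the Mojave did. Prdx1 had a familiar minus unfamiliar difference of 0.47 ± 0.10 (SE; adjusted p = 0.083). Sod1, the cytosolic superoxide dismutase, had 0.44 ± 0.12 (adjusted p = 0.137) and 0.43 ± 0.11 at a second Sod1 probe. Mgst3, a microsomal glutathione transferase, had 0.58 ± 0.12 (adjusted p = 0.083) and 0.59 ± 0.12 at a second Mgst3 probe. Its values were 0.6, 0.44, 1 and 0.53 in Mojave animals on creosote and -0.78, -0.26, -0.37 and -0.37 in those on juniper, and between -0.09 and 0.5 in the Great Basin animals measured.

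The remaining genes given here under the rule had adjusted p-values (limma) of 0.058 to 0.083. Higher on familiar plants were Olr875, Olr63, Olr1516 and Olr1631 of the olfactory receptors, Mcpt6 (a mast cell tryptase), Admr, Mmp16 (a membrane-bound matrix metalloproteinase) and Mobp (a myelin protein), with differences of 0.21 to 0.34. Lower were Ugcgl1, Dhx57, Mynn, Asb6, Sulf2 (which removes sulphate from heparan sulphate), Nap1l2 and Rnf20 (a histone H2B ubiquitin ligase), with differences of -0.54 to -0.31. Further probes gave -0.01 ± 0.065 for Mmp16, -0.066 ± 0.069 and 0.103 ± 0.062 for Mobp, 0.047 ± 0.063 for Asb6 and -0.155 ± 0.056 for Dhx57. Nap1l2 was well above background on 1 of 4 arrays of Great Basin creosote and 2 of 4 of Mojave creosote. At an adjusted p of 0.10, a threshold chosen after the data were seen, 159 genes passed, 56 of them higher and 103 lower.

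In 10 genes (0.0383%) every animal on a familiar plant was above every animal on a unfamiliar plant, and in 7 genes (0.0268%) every one was below, of 26076 genes measured in all animals. The ones named below were chosen after their values were seen. Ugcgl1, which tags misfolded glycoproteins in the endoplasmic reticulum, lay between -0.48 and -0.05 on familiar and between -0.02 and 0.25 on unfamiliar plants. Pomt2, a protein O-mannosyltransferase, lay between -0.47 and -0.05 against -0.04 and 0.24. Man1a2, a mannosidase that trims N-glycans, lay between -1.26 and -0.31 against -0.30 and 0.15. Higher on familiar plants without overlap were Shbg, the sex steroid carrier protein (0.06 to 0.29 against -0.11 to 0.04), Tnr (0.06 to 0.22 against -0.22 to 0.02) and Olr1631 (0.09 to 0.31 against -0.32 to 0). None of the genes named in this paragraph up to here passed the adjusted threshold, with adjusted p (limma) from 0.0589 for Ugcgl1 to 0.146 for Shbg. Of all genes without overlap only A_44_P213371, described above, passed it.

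Of the 3188 genes called for diet averaged over the populations, 846 (26.5%) had an unadjusted p under 0.05 for familiar minus unfamiliar, against 13% of all genes, and 6 passed the adjusted threshold. The 2 tests share each gene's estimate of spread, so genes of small spread pass both more often. Brighter genes also passed more often, 8.89% higher and 14.6% lower in the brightest bin. The part of spread and brightness in the 26.5% was not tested. The 20 genes with the largest averaged diet differences had a median absolute diet difference of 1.64. Their median absolute familiar minus unfamiliar difference was 0.171, against 0.061 over all genes. The standard errors of these 20 ran from 0.06 for Asf1a to 0.412 for Bex4, against a median of 0.066 over all genes. The 0.171 and the 0.061 therefore do not rest on like errors. Besides Asf1a none of the 20 had an unadjusted p under 0.05. The differences of largest size among these were those of Bex4 (0.69, 95% interval -0.19 to 1.57), Per2, a repressor of the circadian clock (0.41, -0.16 to 0.97), and Mug2 (0.38, -0.30 to 1.07). Il1r2, the decoy receptor of interleukin 1, was 3.37 higher on creosote in Great Basin and 3.13 higher in Mojave animals, a familiar minus unfamiliar difference of -0.12 (95% interval -0.64 to 0.41). Elovl6, a fatty acid elongase, gave -0.07 (-0.49 to 0.35). The P450 gene Cyp2b15, with creosote minus juniper differences of -1.86 in Great Basin and -1.57 in Mojave animals, gave 0.14 (-0.29 to 0.58). Cyp3a3 gave -0.15 (-0.43 to 0.12), and Alas1, the rate-limiting enzyme of haem synthesis, gave 0.13 (-0.42 to 0.68). At the median standard error a 95% interval with no adjustment for the number of genes reached 0.14 log2 units to either side, and passing the adjusted threshold took a larger difference at that error.

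No tested enzyme or transporter that handles plant compounds passed the threshold in any list. Their counts at an unadjusted p under 0.05 are given beside those of all genes (5.1% higher, 7.91% lower). Many members could not be tested. Of 60 P450s of families 1 to 3 looked for, 35 were found on the array by symbol, and of 33 UDP-glucuronosyltransferases 13 were. Cyp2b1, Cyp3a1 and Cyp3a2 were among those not found. Of 32 tested P450s of families 1 to 3, 2 were higher and 0 lower, with a median of 0.05, or -0.06 with median centring. These were Cyp2c37 (0.37 ± 0.13, SE) and Cyp2c7 (0.37 ± 0.15). Further Cyp2c7 probes gave 0.07 ± 0.05 and 0.58 ± 0.18. Cyp2c37 was at 0.41, 0.49, 0.35 and 0.48 in Great Basin animals on juniper and at -0.53, -0.45, -0.42 and -1.27 in those on creosote. In Mojave animals it was at -0.43, -0.47, 0.11 and -0.23 on creosote and at -0.17, 0.16, -0.01 and 0.34 on juniper. The Great Basin groups were apart and the Mojave groups overlapped.

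Of 19 glutathione S-transferases 2 were higher (Mgst3 and Gsta2, 0.26 ± 0.12) and 1 lower (Gstm4, -0.34 ± 0.14), with a median of 0.06. A second Gsta2 probe gave 0.13 ± 0.09. Of 12 UDP-glucuronosyltransferases 1 was higher and 0 lower (median 0.00). Of 44 drug transporters 3 were higher and 3 lower (median -0.05). Of 46 carbonyl, alcohol and aldehyde oxidoreductases 3 were higher and 2 lower (median 0.04). The difference of largest size in the latter list belonged to Cbr1, a carbonyl reductase of quinones and other ketones, with -0.85 ± 0.22 (limma, adjusted p = 0.129) and -0.75 ± 0.21 at a second Cbr1 probe. Cbr1 was at -1.73, -1.22, -1.28 and -0.79 in Mojave animals on creosote and at 0.18, 0.56, 0.07 and 0.09 in those on juniper. In Great Basin animals Cbr1 was at 0.56, -0.9, 0.12 and -0.57 on creosote and at -0.73, 0.34, -0.68 and -0.72 on juniper. The Mojave groups were apart and the Great Basin groups overlapped widely. Of 37 genes of thiol redox defence and targets of its regulator NRF2, 4 were higher and 3 lower (median -0.03). Besides Prdx1 and Sod1, Gpx4 (0.21 ± 0.08) and Srxn1 (0.14 ± 0.06) were higher, and Ggt1 (-0.27 ± 0.08), Gclc (-0.13 ± 0.04) and Mafg (-0.19 ± 0.07) were lower.

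Ribosomal protein genes were the list with the largest share of members at an unadjusted p under 0.05 in the higher direction. Of 74 tested, 0 passed the adjusted threshold (limma). At an unadjusted p under 0.05, 17 were higher (23%, against 5.1% of all genes) and 2 lower. In the brightest bin 8.89% of genes were higher, and the part of brightness in the 23% was not tested. The differences of 54 of 74 were above 0 and the median was 0.08, against 0.0001 over all genes. Rpl32 had the smallest p, with 0.36 ± 0.08 (SE; adjusted p = 0.0996). Its values were 0.49, 0.47, 0.12 and 0.11 in Mojave animals on creosote, -0.11, -0.21, -0.19 and -0.25 in those on juniper, 0.03, 0.14, 0 and 0.01 in Great Basin animals on juniper and -0.37, -0.19, -0.23 and 0.22 in those on creosote. Rps24 had 0.25 ± 0.06 (adjusted p = 0.114) and Rps3a 0.33 ± 0.10 (adjusted p = 0.165). The 2 lower members were Rps14 (-0.397 ± 0.165) and Rpl5 (-0.17 ± 0.07). Ribosomal protein genes are near-identical to many pseudogenes, and the rat probes were not checked for this.

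Over the animals the median of the ribosomal proteins was between 0.088 and 0.32 in Mojave creosote, 0.13 and 0.227 in Great Basin juniper, 0.063 and 0.219 in Great Basin creosote and 0.005 and 0.106 in Mojave juniper. The last group lay below Great Basin juniper and overlapped with the other two. Ribosomal proteins were also called for diet in Mojave animals, 14 higher and 3 lower on creosote (median 0.148), and in Great Basin animals 0 were higher and 1 lower (median -0.001). The median familiar minus unfamiliar difference of the list was 0.091, 0.013, 0.016 and 0.162 within the 4 slides. It was positive in all alternatives except median centring, where it was -0.197 with 0% of members higher. The share of members higher was 9.46% with the software-processed signals (5.43% of all genes) and with the Cy5 channel alone (6.67%). This share was 12.2% without the dim slide (4.09%) and 13.5% with normexp offset 0 (4.59%) or male animals alone (3.76%). In the remaining alternatives it was 14.9% to 24.3%. Oxidative phosphorylation genes gave 7 higher and 1 lower of 62 (median 0.02), among them Ndufb7 (0.26 ± 0.07), a subunit of respiratory complex I, and their median was also negative, -0.176, with median centring.

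Of 42 translation factors 1 was higher and 6 were lower at an unadjusted p under 0.05, beside 5.1% and 7.91% of all genes, with a median of -0.08 that was below 0 on 3 of 4 slides. Eif2b4, a subunit of the exchange factor that recharges eIF2, had -0.33 ± 0.07 (adjusted p = 0.0893). It was at -0.6, -0.3, -0.26 and -0.23 in Mojave animals on creosote, at 0.14, 0.22, 0.36 and 0.16 in those on juniper, at -0.28, 0.05, -0.03 and -0.03 in Great Basin animals on juniper and at -0.05, -0.01, 0.18 and 0.02 in those on creosote. The Mojave groups were apart and the Great Basin groups overlapped. Eif3s4 (-0.30 ± 0.10) and Pabpc4 (-0.18 ± 0.08) were also lower, and 2 further Pabpc4 probes gave -0.45 each.

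**Figure D4:**
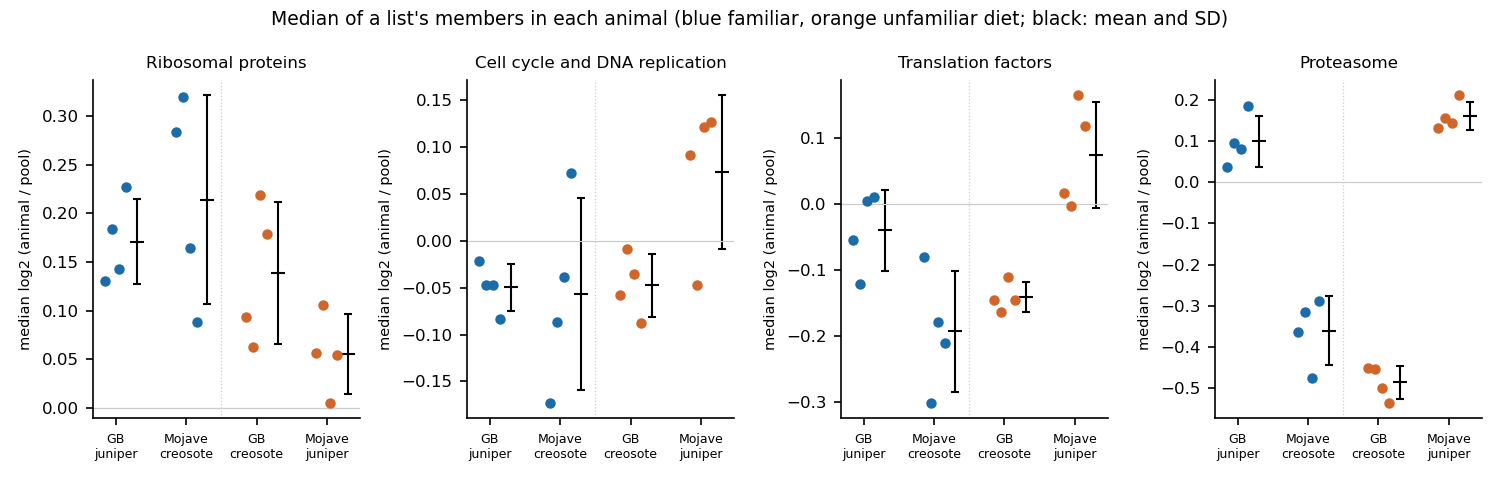
Median log2 ratio to the pool of the members of 4 gene lists in each animal (y axis), by group (x axis), blue for familiar and orange for unfamiliar diets; black marks give the mean and SD of a group. The proteasome list separates creosote from juniper in both populations, while the translation factor list is highest in Mojave juniper.

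Proteasome genes were lower on creosote in both populations, with medians of -0.676 in Great Basin (27 lower of 38) and -0.533 in Mojave animals (24 lower of 38). The familiar minus unfamiliar difference of the list had a median of 0.04 (-0.239 with median centring), with 4 members higher, 2 lower and 0 past the threshold. Psmb7, a catalytic core subunit, was 0.32 ± 0.07 (SE; adjusted p = 0.0996) and Psmd5, an assembly chaperone, -0.36 ± 0.09. Heat shock proteins and chaperones gave 0 higher and 5 lower of 59 (8.47%, near the 7.91% of all genes) with a median of -0.02.

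DNA replication genes were lower on familiar plants at an unadjusted p under 0.05 in a larger share than all genes. Of 51 cell cycle and replication genes 0 passed the adjusted threshold (limma). At the unadjusted one 10 were lower (19.6%, against 7.91% of all genes) and 2 higher, and the median of the list was -0.07. In the brightest bin 14.6% of genes were lower, and the part of brightness in the 19.6% was not tested. In 4 of 4 slides the median of the list was below 0, from -0.134 to -0.042. By group the list median was 0.077 in Mojave juniper, -0.034 in Great Basin creosote, -0.05 in Mojave creosote and -0.076 in Great Basin juniper. Only Mojave juniper was thus above 0, and the other unfamiliar group was near the familiar groups. The median creosote minus juniper difference was -0.095 in Mojave animals and 0.034 in Great Basin animals. The replicative helicase is built of Mcm2 to Mcm7. Mcm2 had -0.57 ± 0.15 (SE; adjusted p = 0.129), Mcm6 -0.43 ± 0.14, Mcm4 -0.42 ± 0.12, Mcm5 -0.33 ± 0.14 and Mcm7 -0.33 ± 0.10, whereas Mcm3 was at -0.001 ± 0.075. Mcm2 was at 0.73, -0.29, 0.78 and 0.58 in Mojave animals on juniper, at -1.09, -0.72, -0.58 and -0.41 in those on creosote, at -0.52, -0.55, -0.58 and -0.66 in Great Basin animals on juniper and at -0.39, -0.38, -0.45 and -0.94 in those on creosote. Of the 16 animals 3 of the Mojave juniper group were above 0 and all others below.

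The second Mcm2 probe gave -0.58 ± 0.17 and the second Mcm4 probe -0.02 ± 0.06. Pola2, a subunit of DNA polymerase alpha, gave -0.49 ± 0.11 (adjusted p = 0.102), Pcna -0.26 ± 0.08 with 0.05 ± 0.19 at a second Pcna probe, and Orc1l -0.21 ± 0.08. Gmnn, an inhibitor of replication licensing, was higher (0.20 ± 0.08). Without the sex term 31.4% of the list was lower (8.73% of all genes), and with male animals alone 13.7% (5.67% of all genes). In bulk liver, fewer dividing cells and less RNA per dividing cell cannot be told apart. Cdkn1b, which encodes the cell cycle inhibitor p27, had 0.42 ± 0.12 (adjusted p = 0.159) and 0.55 ± 0.16 at a second Cdkn1b probe.

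Lipid genes were mixed in direction. Of 30 fatty acid synthesis genes 4 were higher and 5 lower at an unadjusted p under 0.05, and of 41 genes of fatty acid oxidation 5 and 4. In both directions together these were 30% and 22% of the members, against 13% of all genes. In the brightest bin 8.89% of genes were higher and 14.6% lower. The part of brightness in the list shares was not tested. The 30% was the largest share of any list, and 0 members of either list passed the adjusted threshold. Scd2, a stearoyl-CoA desaturase, had 0.39 ± 0.11 (adjusted p = 0.149), with 1.02 ± 0.39 and 0.11 ± 0.04 at 2 further Scd2 probes. Etfb, which passes electrons from fatty acid oxidation to the respiratory chain, had 0.33 ± 0.07 (adjusted p = 0.0977). Cd36, a fatty acid transporter, had -0.61 ± 0.18 (adjusted p = 0.159). Cd36 was at -0.58, -1.78, -0.82 and -0.65 in Mojave animals on creosote and between -0.27 and 0.72 in the other groups. Insig2, which holds back the cleavage of SREBP, had the largest difference among the members of all lists, -0.985 ± 0.242 (adjusted p = 0.142), but a second Insig2 probe gave 0.08 ± 0.06 and 5 of its 16 spots were left out.

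**Figure D5:**
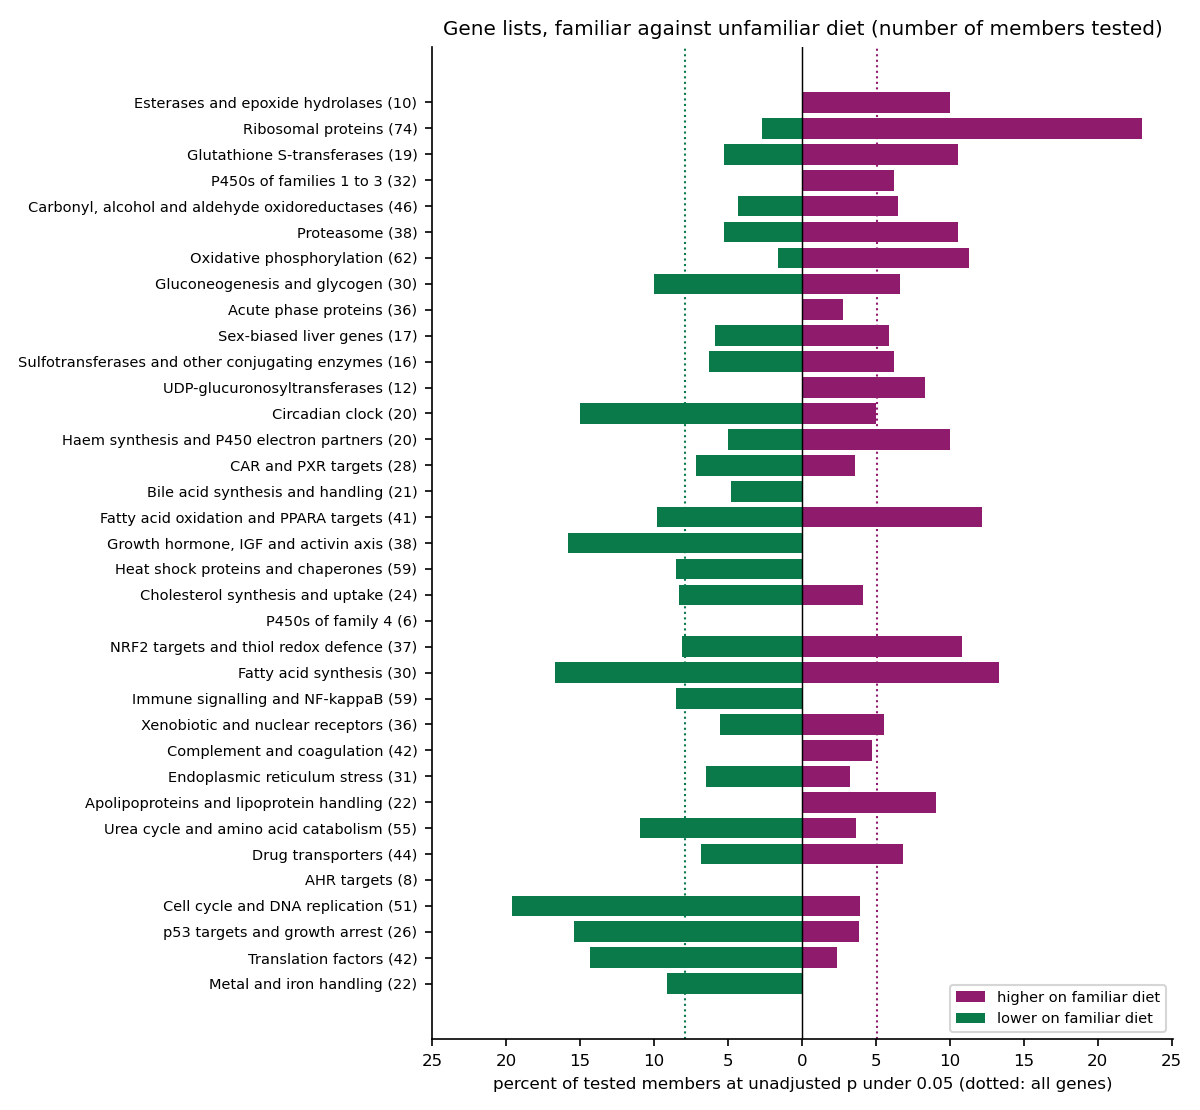
Share of the tested members of each gene list (y axis, number of members in brackets) that were higher (right, purple) or lower (left, green) on familiar plants at an unadjusted p under 0.05 (x axis, percent); dotted lines mark the shares of all genes, 5.1% and 7.91%. Ribosomal proteins extend farthest to the right and cell cycle genes farthest to the left.

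Genes of amino acid catabolism gave 2 higher and 6 lower of 55 (median -0.04), 14.5% in all against 13% of all genes. Oat, an ornithine aminotransferase, had -0.71 ± 0.24 and Cps1, which starts the urea cycle, -0.31 ± 0.09 (adjusted p = 0.146). Cps1 was at 0.64, 0.57, 0.69 and 0.34 in Great Basin animals on creosote and at -0.64, -0.34, -0.42 and -0.46 in those on juniper. In Mojave animals Cps1 was at 0.1, -0.28, 0.35 and 0.13 on creosote and at -0.18, -0.44, -0.39 and -0.49 on juniper. Creosote-fed animals were mostly higher in both populations, with the wider gap in the Great Basin. Bhmt, which remethylates homocysteine, had -0.46 ± 0.12 with 0.03 ± 0.05 at a second Bhmt probe.

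Of 59 immune signalling genes 0 were higher and 5 lower (8.47%, near the 7.91% of all genes). The smallest p among them was that of Myd88, an adaptor of Toll-like receptors (-0.41 ± 0.09, adjusted p = 0.0977). Myd88 was at -0.82, -0.93, -0.39 and -0.41 in Mojave animals on creosote, between -0.01 and 0.2 in those on juniper, and between -0.42 and 0.17 in Great Basin animals. Of 38 genes of the growth hormone, IGF and activin axis 6 were lower and 0 higher. The 6 were 15.8%, against 7.91% of all genes lower, 14.6% of the brightest bin lower and 13% of all genes in either direction. The lower ones included the receptors Acvr1 (-0.48 ± 0.12), Tgfbr2 (-0.26 ± 0.07) and Ghr (-0.28 ± 0.13). Arntl, now named Bmal1, a core activator of the circadian clock, had -0.73 ± 0.20 (adjusted p = 0.146). Arntl was at 1.15, -0.25, 0.52 and 1.04 in Great Basin animals on creosote and at -0.62, -1.28, -1.01 and -1.05 in those on juniper, and between -0.8 and 0.69 in Mojave animals. The time of day at which livers were taken was not given in the sources used here.

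The counts of other lists at an unadjusted p under 0.05 follow, beside 5.1% higher and 7.91% lower of all genes. Of 26 p53 targets 1 was higher and 4 lower (median -0.07), of 28 CAR and PXR targets 1 and 2 (-0.007), of 8 AHR targets 0 and 0 (-0.047), of 16 sulfotransferases and other conjugating enzymes 1 and 1 (0.003), of 36 xenobiotic and nuclear receptors 2 and 2 (-0.037), of 20 circadian clock genes 1 and 3 (-0.001) and of 36 acute phase proteins 1 and 0 (0.007).

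No marker of another cell type passed the adjusted threshold. At an unadjusted p under 0.05, 5.1% of all genes were higher and 7.91% lower. Of 12 lymphocyte markers tested 0 were higher and 1 lower at an unadjusted p under 0.05 (median -0.08), of 10 macrophage markers 1 was higher and 0 lower (-0.07), of 13 endothelial markers 0 and 2 (-0.05), of 15 stellate markers 0 and 0 (-0.07), of 10 cholangiocyte markers 1 and 0 (0.03), of 11 neutrophil markers 0 and 0 (0.02), of 6 erythroid markers 1 and 0 (-0.01) and of 19 markers of pancreas and intestine 1 and 0 (0.03). The list medians of the macrophage markers in the 4 groups lay between -0.029 and 0.006 and those of the lymphocyte markers between -0.004 and 0.111. The part of other cell types in the gene differences above was not tested.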

How the data were processed

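Per the labels, liver RNA of each animal was labelled with Cy5 and hybridised to a rat array against a Cy3-labelled pool, with no dye swap. The deposited scanner files hold linear intensity values per spot (Agilent Feature Extraction 9.1.3.1, per the submitters' processing notes). The deposited series values are log2 ratios made by the authors from the software-processed signals, used as an alternative. Signals were corrected here by normexp (offset 50), normalised by loess within arrays and fitted with limma 3.58.1 in R 4.3.3, as 4 group means with an additive sex term. Control and outlier spots were left out. Probes had to exceed background clearly in Cy5 on 4 or more of the 16 arrays, and the brightest probe represented a gene. Benjamini-Hochberg adjustment ran over 26530 genes with a threshold of 0.05.

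Named genes have a symbol: the 12 with the largest differences in each direction past the threshold, filled up by smallest unadjusted p, and at most 4 members of smallest p per list; others were chosen after their values were seen. The members and lists were chosen with earlier results of these data known. Animals are wild-caught individuals. Probe sequences were not used here. Some genes that the rule names are not reported here.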

Additional observations from a re-analysis of the deposited data

Results flagged for a closer look

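The population by diet interaction passed the threshold in 11 genes, which is what marks them here: the diet difference in 1 population differed from that in the other. The familiar minus unfamiliar differences were -0.43 for Asf1a, -0.69 for LOC294072, -0.54 for RGD1563888, -0.47 for LOC678905, -0.28 for Rkhd2, 0.35 for Pfdn5, 0.36 for A_44_P213371, 0.23 for CB546385, 0.32 for M23885, 0.37 for RGD1559786 and 0.37 for XM_227733.

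A single animal lay far from the other 3 of its group in 4 of 126 groups looked at over the named genes (3.17%), where chance alone gives about 1 in 20. Olr63 was at 0.11 in Great Basin juniper 3 against 0.24 in the others. Rkhd2 was at -0.6 in Mojave creosote 2 against -0.45 to -0.42. Dhx57 was at -0.44 in Great Basin juniper 1 against -0.2 to -0.18. LOC294072 was at -0.55 in Great Basin juniper 4 against -0.35 to -0.31.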

How the results depend on the processing

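All 11 called genes kept their direction in every alternative, but the count of calls did not hold. It was 68 without the sex term (23 higher, 45 lower), 0 with male animals alone, 0 with the software-processed signals, 0 with normexp offset 0, 0 with the Cy5 channel alone, 0 with genes above background on all 16 arrays (15095 tested), 0 with no filter on dim probes, 1 with a trended robust prior, 0 without the dim slide, and 2411 with median centring (126 higher, 2285 lower, against 6 and 5). The cause was not tested. The unadjusted counts of these settings were 3850, 2496, 2899, 2902, 2894, 2614, 3916, 3322, 2930 and 6514. With the replicate number as a block 1 gene passed; same-numbered animals did not pair (3 of 24 pairs correlated above 0.1), and 2 of 16 animals correlated best with their own number. A slide block gave 15 (3 higher, 12 lower; 7 of the 11 among them) and the mean of a gene's probes 10 (8 of the 11, without Rkhd2, M23885 and RGD1559786). Without 1 animal the count ran from 0 to 336: 336 without Great Basin creosote 4, 57 and 24 without Mojave creosote 4 and 3, 7 without Mojave juniper 2, 6 without Great Basin creosote 2 or Mojave creosote 2, and 0 without any of the others (2874 to 4086 at an unadjusted p under 0.05 over all 16). 2 alternatives were added after seeing the data: 159 genes passed at an adjusted p of 0.10, and 1 (Asf1a) when only genes with a symbol were adjusted. The difference in the share of probes above background, 1.57 points, was -4.15 with male animals alone and ran from -1.44 to 4.17 without 1 animal.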

Other observations

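Olfactory receptor genes stood out among the named genes and were counted as a family after their values were seen. Of 934 tested, 100 (10.7%) were higher and 8 (0.857%) lower on familiar plants at an unadjusted p under 0.05, against 5.1% and 7.91% of all genes. The median difference was 0.04, above 0 in 675 of 934. The group medians were 0.05 in Mojave creosote, 0.04 in Great Basin juniper, 0.02 in Mojave juniper and 0.01 in Great Basin creosote. Within the 4 slides the median ranged from 0.032 to 0.045, and over all alternatives from 0.022 to 0.109. The median red signal of these probes was 81.7, against 80.7 for all genes. These receptors are known from the olfactory epithelium, and no test of the source of this signal in liver was made.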
